A study of Drosophila melanogaster with 3 samples.

Results

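The genes described here encode the protein components of the mitochondrial ribosome in Drosophila melanogaster. They were taken as all protein-coding genes of the Ensembl annotation whose symbol starts with mRpL (large subunit) or mRpS (small subunit), which gave 73 of 13968 protein-coding genes, 47 of the large and 26 of the small subunit. The rule uses names only, so tko and bonsai, which encode small-subunit proteins under other symbols, are not among them. They are called mRp genes below. Binding was measured by chromatin immunoprecipitation and sequencing (ChIP-seq) of Coop (CG1621), a corepressor known to bind the TCF factor Pangolin, in 3 biological replicates of whole prepupae of mixed sex at 24 h. All animals came from a single transgenic line with eGFP, a green fluorescent protein, at the C-terminus of Coop, and there was no second genotype, treatment or stage. The labels give neither the promoter that drives the fusion nor whether the untagged protein was still present, and whole animals mix many cell types. The free-text note of each library calls it an input control, whereas its assay title and antibody field describe an immunoprecipitation, and the values below rest on the latter reading.

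Mitochondrial ribosomes translate the few proteins that the mitochondrial genome encodes, which are core subunits of the respiratory chain and ATP synthase. Their RNA comes from mitochondrial DNA, but their proteins are encoded in the nucleus, made in the cytosol and imported, so many nuclear promoters supply a single particle. Many of these proteins descend from bacterial ribosomal proteins, and others were added in the mitochondrial lineage. Head-to-head gene pairs are common in the compact fly genome, and a binding site between their start sites lies upstream of both genes.

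The sequences below reach from 100 bases before to 100 bases after the thresholded summit at 6 of the 7 genes with the strongest summits (that of mRpL41 is not shown), to let the base composition and the spacing of known promoter words be read beside the values. All are the plus strand of dm6, 5′ to 3′, from the RefSeq genome of that build: mRpS23 at chr2L:13835365-13835565, mRpS10 at chr3R:15229431-15229631, mRpL23 at chr3L:2373511-2373711, mRpL24 at chr2L:4945395-4945595, mRpL22 at chrX:16783928-16784128 and mRpL20 at chr3L:13018022-13018222. Capitals mark matches, on either strand, to 5 words that were searched: the DRE TATCGATA, Motif 1 GGTCACACT, the E-box CAGCTG, the GAGA word GAGAG and the ewg/NRF-1 core GCGCATGC.
mRpS23: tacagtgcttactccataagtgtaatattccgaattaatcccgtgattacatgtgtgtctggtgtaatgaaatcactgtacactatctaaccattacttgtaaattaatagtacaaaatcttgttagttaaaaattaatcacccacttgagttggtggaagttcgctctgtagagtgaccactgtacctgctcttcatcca
mRpS10: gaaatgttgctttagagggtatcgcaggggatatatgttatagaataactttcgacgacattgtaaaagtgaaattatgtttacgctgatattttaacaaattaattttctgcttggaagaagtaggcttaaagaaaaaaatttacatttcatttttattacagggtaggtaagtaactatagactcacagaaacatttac
mRpL23: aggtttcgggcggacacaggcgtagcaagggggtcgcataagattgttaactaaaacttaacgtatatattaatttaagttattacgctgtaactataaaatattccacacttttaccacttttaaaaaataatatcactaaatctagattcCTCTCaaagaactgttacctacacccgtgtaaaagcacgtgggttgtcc
mRpL24: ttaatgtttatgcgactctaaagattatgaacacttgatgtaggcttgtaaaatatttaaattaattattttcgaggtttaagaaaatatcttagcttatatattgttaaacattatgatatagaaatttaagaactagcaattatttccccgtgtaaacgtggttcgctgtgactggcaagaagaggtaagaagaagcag
mRpL22: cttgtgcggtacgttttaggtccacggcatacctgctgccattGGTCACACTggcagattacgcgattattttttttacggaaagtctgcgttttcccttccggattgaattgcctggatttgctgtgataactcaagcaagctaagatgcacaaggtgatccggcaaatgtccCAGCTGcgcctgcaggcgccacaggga
mRpL20: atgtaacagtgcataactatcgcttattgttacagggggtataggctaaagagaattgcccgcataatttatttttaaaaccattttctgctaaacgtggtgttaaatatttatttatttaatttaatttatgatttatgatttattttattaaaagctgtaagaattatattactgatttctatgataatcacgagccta
A match was present in the windows of mRpL22 (Motif 1 and the E-box) and mRpL23 (the GAGA word, on the minus strand), and the other 4 windows had 0 matches. The windows of mRpS10 and mRpL24 had 29.9% G and C, that of mRpL20 26.4%, and those of mRpS23 and mRpL23 36.3%, whereas that of mRpL22 had 50.7%.

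The first question was how many of these promoters carried binding. The thresholded list holds the 6626 peaks that passed the authors' reproducibility threshold (irreproducible discovery rate, IDR) over the replicates. A gene is called bound here when a summit of the thresholded list lay within 500 bp of any of its transcription start sites (TSS), and 19 of the 73 genes were bound (26.0%), beside 21.1% of all protein-coding genes. No test of the difference was made, since the genes were chosen with results of these data known and there is no contrast between samples. When each replicate was read down to its 6626 strongest regions, 27 genes had a promoter summit in replicate 1 (37.0%, all genes 25.9%), 23 in replicate 2 (31.5%, all genes 21.3%) and 14 in replicate 3 (19.2%, all genes 18.1%). The mean was 29.2% ± 9.12 (SD, n = 3), against 21.8% ± 3.93 (SD, n = 3) for all genes. Within replicates the mRp share was higher in 3 of 3, by 11.0, 10.2 and 1.06 percentage points in replicates 1, 2 and 3 (mean 7.44 ± 5.54, SD, n = 3), with the smallest gap in replicate 3. A promoter summit in all 3 of these replicate lists was held by 12 genes (16.4%, all genes 12.7%), and in at least 1 by 31 genes (42.5%, all genes 31.8%). A thresholded summit that all 3 of these replicate lists placed within 100 bp was held by 11 of the 73 genes (15.1%), beside 10.7% of all genes. The lists hold no read counts, which leaves library depth unknown, and 1 control alignment served all replicates, per the deposited notes.

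The signals of the bound genes were unevenly spread. Signal here means the caller's score as the authors deposited it, which ranks peaks inside a list and differs in scale from list to list. In the thresholded list 7 of the 19 bound genes had a summit among the 662 strongest peaks (36.8%), beside 423 of the 2953 bound genes in all (14.3%). The median signal of the 19 was 299, close to the median of 308 over all bound genes. Apart from the 7, only mRpL2 (407) and mRpS2 (403) lay above 308. The remaining bound genes, from mRpL4 (299) down to mRpL33 (171), lay below it.

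mRpS23 (FBgn0260407, arm 2L, 13834250 to 13835072, minus strand), a small-subunit gene, had the strongest summit of the set, with a signal of 3613 and rank 14 of 6626. Its signal was 1024 in replicate 1 (rank 18), 1496 in replicate 2 (rank 16) and 1096 in replicate 3 (rank 15). The 3 replicates placed it at nearly the same rank and within 8 bp of each other, in intergenic sequence 393 bp upstream of the mRpS23 TSS.

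mRpS10 (FBgn0038307, arm 3R, 15229665 to 15230516, plus strand) encodes the counterpart of bacterial ribosomal protein S10 and had a signal of 2654 and rank 38. Its signal was 600.2 in replicate 1 (rank 72), 1355 in replicate 2 (rank 19) and 693 in replicate 3 (rank 58), so replicate 2 ranked it highest. The summit was intergenic, 134 bp upstream of the TSS.

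mRpL41 (FBgn0034001, arm 2R, 15217024 to 15217617, minus strand) encodes a large-subunit protein specific to mitochondria and had a signal of 2276 and rank 59. Its signal was 528 in replicate 1 (rank 92), 1074 in replicate 2 (rank 42) and 681 in replicate 3 (rank 60). The summit lay 146 bp upstream of the TSS in intergenic sequence, 13 bp apart at most between replicates, with no other protein-coding TSS within 500 bp of it.

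mRpL23 (FBgn0035335, arm 3L, 2372844 to 2373704, minus strand) encodes the counterpart of a bacterial protein at the exit of the ribosomal tunnel, and it had a signal of 1808. Its signal was 481 in replicate 1 (rank 112), 793 in replicate 2 (rank 92) and 538 in replicate 3 (rank 108), so the ranks were close in all 3 libraries. The thresholded summit lay 67 bp downstream of the nearest TSS, in the 5′ untranslated region, and the replicate summits spanned 24 bp. Together with mRpS23, mRpS10 and mRpL41 it made a group of 4 genes that no replicate ranked below 112.

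The next 3 genes had signals of 852 (mRpL24, rank 560), 790.3 (mRpL22, rank 634) and 773 (mRpL20, rank 661). mRpL24 (FBgn0031651, arm 2L, 4944256 to 4945361) ranked 1437 in replicate 1, 383 in replicate 2 and 579 in replicate 3. mRpL22 (FBgn0030786, X, 16783933 to 16785092), the counterpart of a bacterial tunnel protein, ranked 369, 1313 and 318 in replicates 1, 2 and 3. mRpL20 (FBgn0036335, arm 3L, 13017149 to 13017867), whose bacterial counterpart acts early in assembly of the large subunit, ranked 2085, 574 and 547. The replicates therefore differed on which of the 3 was strongest: replicate 1 and replicate 3 put mRpL22 first, and replicate 2 put it last. mRpL22 had a second thresholded summit 297 bp downstream of its TSS, with a signal of 178, close to the lowest signal of the list (171).

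mRpL2 (FBgn0036135, arm 3L, 11120847 to 11122041), the counterpart of a bacterial protein near the peptidyl transferase centre, followed with a signal of 407 and ranks of 1771, 2331 and 2986 in replicates 1, 2 and 3. mRpS2 had 403, and mRpL4, another counterpart of a bacterial tunnel protein, had 299. The rank of mRpL4 was 1604 in replicate 1, 4200 in replicate 2 and 6490 in replicate 3, the last close to the limit of 6626. The remaining 9 bound genes had signals from 281 (mRpS16) down to 171 (mRpL33, rank 6613), and in between were mRpL34 (270.3), mRpL27 (269.5), mRpL14 (256), mRpL18 (236), mRpL52 (210.3), mRpL43 (204) and mRpS30 (186).

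Agreement between replicates was less complete among the weaker summits. The rule itself favours this, since a weak summit falls more readily outside the 6626 strongest regions of a replicate. The summits of the 10 strongest genes, from mRpS23 to mRpL4, and that of mRpL27 were found within 100 bp among the 6626 strongest regions of all 3 replicates. Among its strongest regions replicate 3 lacked the summits of mRpS16, mRpL34, mRpL18 and mRpL52, which replicates 1 and 2 held, and replicate 1 lacked that of mRpL14. At this depth mRpL33 was found in replicate 1 alone and mRpS30 in replicate 3 alone. The mRpL43 summit was found in none. Replicate 1 had a summit 22 bp from it at rank 6968, just past the limit, whereas the promoter summit of replicate 2 (rank 6932) lay 181 bp from it. For mRpL33, replicate 2 had a summit 40 bp from the thresholded one at rank 6915, also just past the limit. Further past it, replicate 2 had a summit 21 bp from that of mRpS30 at rank 8203. Replicate 3 had one 10 bp from that of mRpL34 at rank 10147. By replicate, 16 of the 19 were found in replicate 1, 16 in replicate 2 and 13 in replicate 3. Over all thresholded promoter summits on the arms that carry mRp genes, replicate 3 found from 67.3% (2R) to 77.2% (X). The shares over all promoter summits were not computed for replicates 1 and 2.

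**Figure D1:**
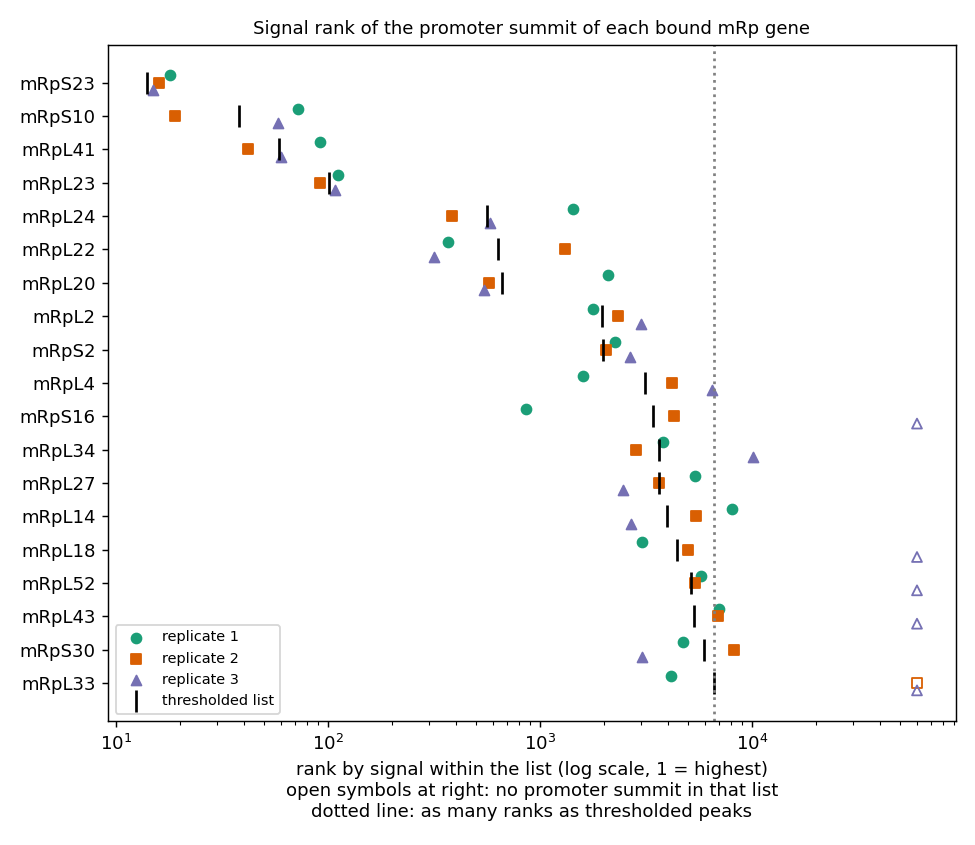
Rank by signal (log axis, 1 is the highest) of the strongest summit within 500 bp of a TSS for the 19 bound mitochondrial ribosomal protein (mRp) genes, in each replicate (symbols) and in the thresholded list (bars), with the dotted line at rank 6626 and open symbols where the replicate list of 30000 regions held none. The 4 genes at the top rank within 112 in every replicate, and open symbols appear only among the genes of lower signal.

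A summit near a start site need not belong to that gene alone, and 14 of the 19 bound genes shared their summit with a neighbour on the opposite strand whose TSS lay within 500 bp of it. That share (73.7%) was above the 42.5% of all bound genes and close to the 76.1% of bound genes with a divergent promoter, meaning an opposite-strand start site at most 1000 bp upstream. The 14 neighbours were all different protein-coding genes, with 20 to 492 bp (median 245) between the start sites. In 13 of the 14 pairs the neighbour's TSS was nearer to the summit. Over all 1190 bound genes with a divergent promoter that shared their summit, another gene was nearer in 592 (49.7%), beside 92.9% of the 14 genes here. The thresholded summits thus lay nearer to the neighbour's start site, with mRpL23 as the exception, although at mRpS10, mRpL18 and mRpL52 the distances were nearly even. Single replicates could reverse this. Replicate 3 placed the mRpS2 summit 79 bp upstream of the mRpS2 TSS, with 222 bp between the start sites. Replicate 2 placed that of mRpL52 5 bp downstream of the mRpL52 TSS. Both positions were nearer to the mRp gene, and the pairs were not counted by replicate.

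The partners of the strongest summits had varied roles. The mRpS23 summit lay 99 bp upstream of CenG1A, which encodes a GTPase-activating protein for Arf, and 393 bp from mRpS23. The mRpS10 summit lay 123 bp from the TSS of Art3, an arginine methyltransferase gene, and 134 bp from that of mRpS10. mRpL24 shared its summit with betaggt-I, the beta subunit gene of type I geranylgeranyl transferase (84 bp, against 134 bp for mRpL24), and mRpL20 with Icmt, the isoprenylcysteine carboxyl methyltransferase gene (144 bp against 255 bp). Both of these partners encode enzymes of protein prenylation or of its follow-up step.

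The mRpL2 summit lay in an intron of FoxK, a forkhead transcription factor gene, 127 bp from the nearest FoxK TSS and 309 bp from that of mRpL2. Mon1, a vesicle-trafficking gene, was 48 bp from the summit it shared with mRpS2 (174 bp). The zinc-finger gene cg (combgap) was 14 bp from the mRpS16 summit (83 bp), and Dg, the dystroglycan gene, 178 bp from that of mRpL34 (206 bp). Taz, which encodes tafazzin, an enzyme of the mitochondrial lipid cardiolipin, was 9 bp from the summit it shared with mRpL18 (11 bp). The phospholipase C gene norpA was 72 bp from the summit of mRpL33 (467 bp), which lay in the 5′ untranslated region of norpA. The other 4 partners were CG9004 (mRpL23), CG15435 (mRpL27, 5 bp from the summit against 227 bp), CG12107 (mRpL52) and CG30183 (mRpL43).

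The 5 bound genes alone at their summit were mRpL41, mRpL22, mRpL4, mRpL14 and mRpS30. The mRpL14 summit lay 181 bp and the mRpS30 summit 208 bp downstream of the TSS, both in the coding sequence of the gene itself. Of all 19 strongest summits 15 lay upstream and 4 downstream of the mRp TSS (78.9% upstream, beside 71.2% over all bound genes). The median distance to the TSS was 174 bp, with a range of 11 to 467 bp, beside a median of 113 bp over all bound genes. When each summit was given to the gene of the nearest TSS alone, 6 of the 73 genes kept a call (8.22%), beside 17.1% of all protein-coding genes: mRpL41, mRpL23, mRpL22, mRpL4, mRpL14 and mRpS30. Every other bound gene of the set was called through a summit that lay nearer to another gene.

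**Figure D2:**
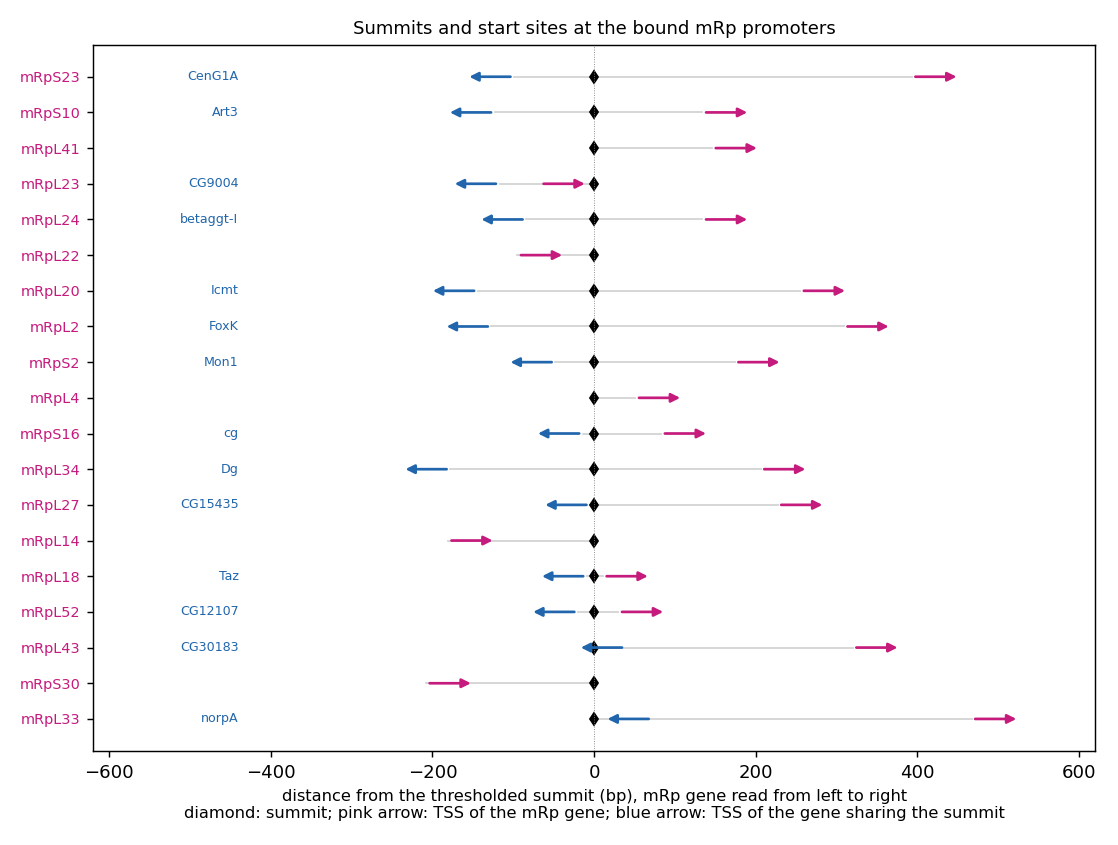
Position of the thresholded summit (diamond, at 0 bp) and of the start sites at the 19 bound promoters, with each mRp gene drawn from left to right (pink arrows start at its TSS) and the gene that shares the summit in blue. Blue start sites lie nearer to the summit than pink ones in 13 of the 14 shared promoters, and 5 promoters have no blue arrow.

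Promoter arrangement does not depend on the binding data. A divergent promoter was found at 58 of the 73 genes (79.5%), beside 36.2% of all protein-coding genes, and the neighbour's TSS lay within 500 bp in 53 of the 58. Of the 58, 18 were bound (31.0%), and of all 5052 divergent genes 1564 were bound (31.0%). Of the 15 without a divergent promoter 1 was bound, mRpL14 (6.67%, beside 15.6% of all such genes). Within the promoter classes, then, the bound share of the mRp genes was level with that of all genes in the first and below it in the second. In the strongest regions of the replicates, 44.8%, 37.9% and 22.4% of the 58 divergent genes had a promoter summit in replicates 1, 2 and 3, beside 39.4%, 33.2% and 24.0% of all divergent genes.

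**Figure D3:**
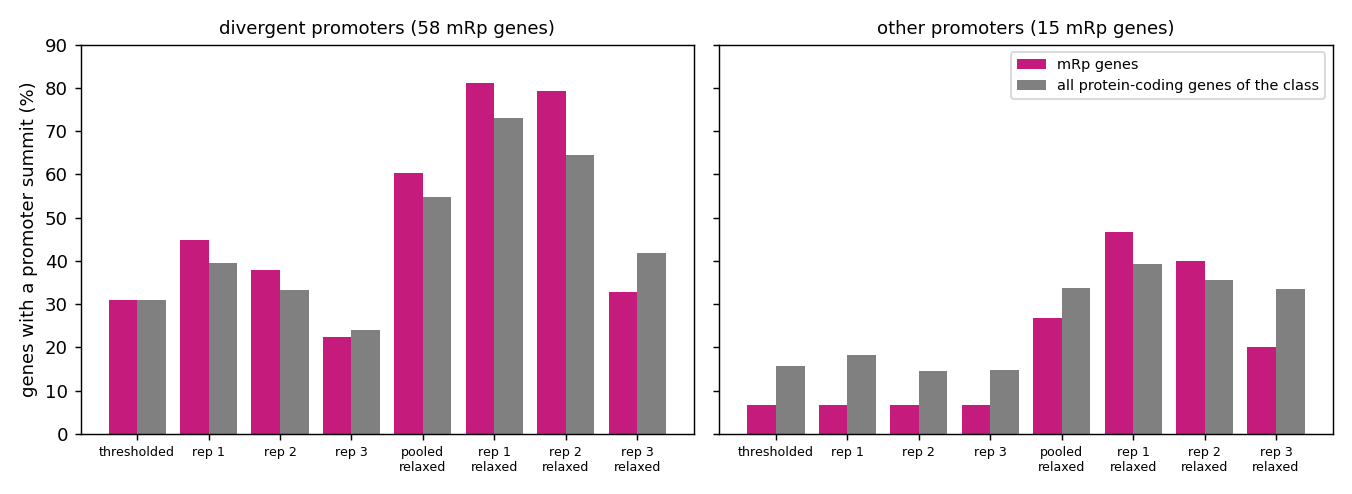
Share of genes with a promoter summit (%) in the thresholded list, in the 6626 strongest regions of each replicate and in the 4 relaxed lists, for mRp genes (pink) and all protein-coding genes (grey) with divergent promoters (left) and without (right). In the thresholded list the divergent bars are level at 31.0%, and replicate 3 relaxed has the mRp bar below the grey one on both sides.

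Weaker regions were examined in the relaxed lists, which hold 30000 regions each and, by their deposited name, background as well as peaks. The pooled relaxed list had a promoter summit at 39 of the 73 genes (53.4%, all genes 41.3%), so 20 genes joined the 19 above. In replicate 1 the count was 54 (74.0%, all genes 51.5%), in replicate 2 it was 52 (71.2%, all genes 46.1%), and in replicate 3 it was 22 (30.1%, all genes 36.5%). Replicate 3 thus stood apart: the mRp share lay above that of all genes in replicates 1 and 2 and below it in replicate 3. Of ranks 15001 to 30000, replicate 3 placed 1 mRp gene there (1.37%, beside 8.10% of all genes), whereas replicate 1 placed 10 and replicate 2 placed 8. Among divergent genes alone the shares were 81.0%, 79.3% and 32.8% for mRp genes in replicates 1, 2 and 3, beside 73.0%, 64.4% and 41.7% of all divergent genes. Whether library depth or quality goes with this difference was not tested. A promoter summit in none of the 5 lists was the case for 11 of the 73 genes (15.1%, all genes 40.0%): mRpL3, mRpL15, mRpL21, mRpL30, mRpL38, mRpL40, mRpL45, mRpL46, mRpL49, mRpS9 and mRpS35.

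**Figure D4:**
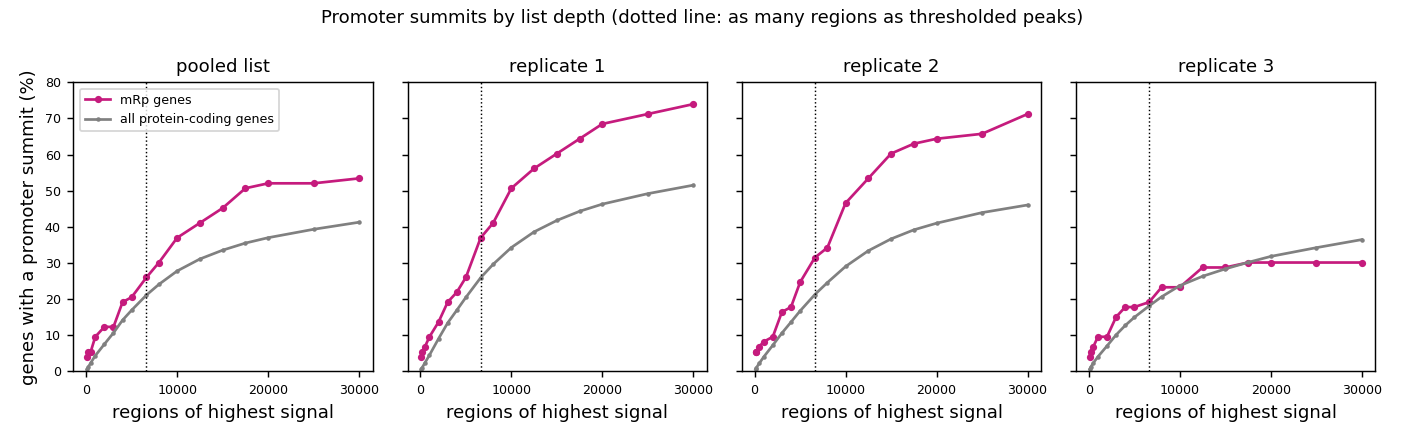
Share of genes with a promoter summit (%) as regions are added in order of signal, for the 73 mRp genes (pink) and all protein-coding genes (grey), in the pooled list and in each replicate, with the dotted line at 6626 regions. The pink curves end at 74.0% and 71.2% in replicates 1 and 2 and at 30.1% in replicate 3, where the grey curve ends above at 36.5%.

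Another 13 genes were not bound by the thresholded list but had a promoter summit among the strongest regions of at least 1 replicate. mRpS6 (FBgn0035534, arm 3L) was the only one with such a summit in all 3 replicates, at ranks of 4642, 4516 and 3782 in replicates 1, 2 and 3, and it had none in the pooled relaxed list. Over all protein-coding genes 14 had this combination (0.100%). The 3 mRpS6 summits lay 47, 108 and 173 bp upstream of a TSS in replicates 1, 2 and 3, so the replicates did not place them at 1 position. mRpL53 ranked 847 in replicate 1 and 2621 in replicate 2, 54 and 70 bp upstream of its TSS, and had no promoter summit in replicate 3 or in the pooled list. A TSS of CG33155 lies 0 bp from that of mRpL53, and the divergent TSS of AGO1 170 bp from it. mRpL47 ranked 2508 and 5990 and mRpS26 ranked 6331 and 5863 in replicates 1 and 2, neither with a summit in replicate 3. The other 9 had such a summit in 1 replicate: mRpS11 (rank 2743), mRpS18C (5486), mRpL9 (5539), mRpL1 (5841), mRpL28 (6366) and mRpL42 (6441) in replicate 1, and mRpS31 (2856), mRpL37 (4396) and mRpS7 (5415) in replicate 2.

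Near the edge of the 500 bp window lay mRpL33, 467 bp from its summit on the inside, and mRpS31, 513 bp from a summit of signal 527 (rank 1312) on the outside. That summit lay in the 5′ untranslated region of the neighbouring gene hzg and had a replicate summit within 100 bp at rank 573 in replicate 1, 2856 in replicate 2 and 1355 in replicate 3. mRpL54 had a thresholded summit 740 bp downstream of its TSS, in its own 3′ untranslated region and within 500 bp of the TSS of Cht8, a chitinase gene (signal 189.95). These were the 2 genes of the set whose nearest thresholded summit lay beyond 500 and within 1000 bp.

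By subunit, 14 of 47 large-subunit genes (29.8%) and 5 of 26 small-subunit genes (19.2%) were bound. The replicate means were 29.8% ± 9.75 for the large and 28.2% ± 8.01 for the small subunit (SD, n = 3 each), so the gap in the thresholded list was not seen in the replicate lists. Genes whose number follows bacterial ribosomal proteins (up to 36 for mRpL and up to 21 for mRpS) were bound at 14 of 42 (33.3%), and those with higher numbers, which are mostly specific to mitochondria, at 5 of 31 (16.1%). In the strongest regions of replicates 1, 2 and 3 these shares were 45.2%, 35.7% and 26.2% for the bacterial numbers, and 25.8%, 25.8% and 9.68% for the higher ones. The share of all genes was 21.1% in the thresholded list and 25.9%, 21.3% and 18.1% in replicates 1, 2 and 3. The genes with bacterial numbers were ahead in 3 of 3 replicates, with means of 35.7% ± 9.52 and 20.4% ± 9.31 (SD, n = 3 each). The same genes are counted in every replicate, so the SD gives the spread between replicates and not between genes. Of the 6 genes kept by the nearest-TSS rule, mRpL23, mRpL22, mRpL4 and mRpL14 had bacterial numbers, and mRpL41 and mRpS30 higher ones. The replicates share 1 line and 1 control, and the difference was not tested.

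The 5 words marked in the sequences were then counted over whole sets. In the 250 bp before and 50 bp after a TSS, the E-box CAGCTG was present at 41 of the 73 genes (56.2%), beside 22.3% of all protein-coding genes. The DRE, the site of Dref, a factor of growth and replication genes, was present at 16 (21.9%, all genes 10.2%), and Motif 1, the site of the promoter factor M1BP, at 8 (11.0%, all genes 6.77%). GAGAG, the core of the site of the GAGA factor, was present at 13 (17.8%, all genes 36.3%), and the ewg/NRF-1 core at 1, mRpL21 (1.37%, all genes 1.45%). The E-box was present at 10 of the 19 bound and 31 of the 54 other genes, and the DRE at 4 and 12 of them, so neither word was more common among the bound genes. Motif 1 was present at 4 of the 19 bound genes (21.1%) and 4 of the 54 others (7.41%), and GAGAG at 4 (21.1%) and 9 (16.7%), counts of a few genes that were not tested. Both strands were counted, and no word contains another, but GAGAG can overlap copies of itself.

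Within 100 bp of the strongest summit of each of the 19 bound genes, the E-box was present in 6 windows (31.6%, beside 13.0% of the windows at all 2683 thresholded promoter summits). Motif 1 was present in 2 (10.5%, beside 3.76%), mRpL22 and mRpS16, and the DRE in 1, mRpL4 (5.26%, beside 4.96%). GAGAG was present in 3 (15.8%, beside 34.2%), and the ewg/NRF-1 core in 0 (beside 0.745%). E-boxes lay 57 to 75 bp from the summits of mRpL18, mRpS2, mRpL52, mRpL22 and mRpL43, and 11 and 17 bp from that of mRpS30. Within 50 bp of the summit 1 of the 19 held an E-box (beside 6.22%), so most copies lay toward the flank.

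Most summits were A- and T-rich: 13 of the 19 lay below the median G and C content of all thresholded promoter summits. Among the printed windows that of mRpL22 was above it. Median G and C content was 36.3% at the 19 summits, with a range of 25.4% (mRpL41) to 58.2% (mRpS30), beside a median of 43.8% at all thresholded promoter summits. At the 7 strongest summits it was 29.9%, beside 37.8% at the 330 promoter summits among the 662 strongest peaks. The promoter windows at the TSS had medians of 35.9% for bound and 33.9% for other mRp genes, and 38.5% over all genes. Their low G and C content was thus present in bound and other mRp promoters alike.

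Other genes that serve mitochondrial gene expression were read in the same way. Of 11 genes for mitochondrial DNA maintenance and transcription, 4 were bound (36.4%), and 27.3% had a promoter summit in each of the 3 replicates. They were TFAM, the packaging and transcription factor of mitochondrial DNA (signal 822, ranks 639, 816 and 426 in replicates 1, 2 and 3, 6 bp from the TSS), PolG1, the polymerase gamma catalytic subunit (481), mtSSB, the single-stranded DNA binding protein (299), and mTerf3, a regulator of mitochondrial transcription and translation (194). The TFAM, PolG1 and mtSSB summits were found in all 3 replicates.

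Of 15 mitochondrial aminoacyl-tRNA synthetase genes only ArgRS-m was bound (203), of 11 translation factor genes only mIF2, an initiation factor (216), and of 15 import genes Tom7 (338) and Tom40 (179.9). None of these 4 summits was matched within 100 bp among the strongest regions of all 3 replicates. ArgRS-m and Tom7 still had a promoter summit among the strongest regions of every replicate. Its ranks in replicates 1, 2 and 3 were 5586, 4798 and 5086 for ArgRS-m, and 1697, 2537 and 3236 for Tom7. For ArgRS-m and Tom7 it was thus the position that was not matched. mIF2 ranked past the limit in replicate 2 (9006), and Tom40 in replicates 2 and 3 (8363 and 12918). tko and bonsai were not bound. The replicate means were 13.3% ± 6.67 for the synthetases, 12.1% ± 13.9 for the translation factors and 13.3% ± 6.67 for import (SD, n = 3 each). All were below the 29.2% of the mRp genes and the 21.8% of all genes, in lists of 11 to 15 genes where 1 gene moves the share by several percent. Divergent promoters were present at 46.7%, 36.4% and 33.3% of these lists in the same order, beside 79.5% of the mRp genes. The share over all protein-coding genes was 36.2%, so only the import list had fewer divergent promoters than all genes.

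The cytosolic ribosome, which translates nuclear messages, offers the nearest comparison, and its values stand beside those of the mRp genes without a test. Of 92 such genes 64 were bound (69.6%), and the replicate mean was 61.2% ± 14.2 (SD, n = 3), beside 29.2% ± 9.12 for the mRp genes. Replicate 3 gave the lowest share in both sets, 47.8% and 19.2%. The median distance between summit and TSS was 20 bp for the cytosolic genes and 174 bp for the mRp genes. The nearest-TSS rule kept 62 of the 64 cytosolic genes (96.9%) and 6 of the 19 mRp genes (31.6%), although 59.8% of the cytosolic genes also had a divergent promoter. The strongest cytosolic summits lay at RpL7 (1368), RpS27 (782), RpS4 (715) and RpL23A (671), below those of the 4 leading mRp genes. Summits thus lay close to the start site at most cytosolic genes, and at a minority of mRp genes, mostly nearer to the neighbour.

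**Figure D5:**
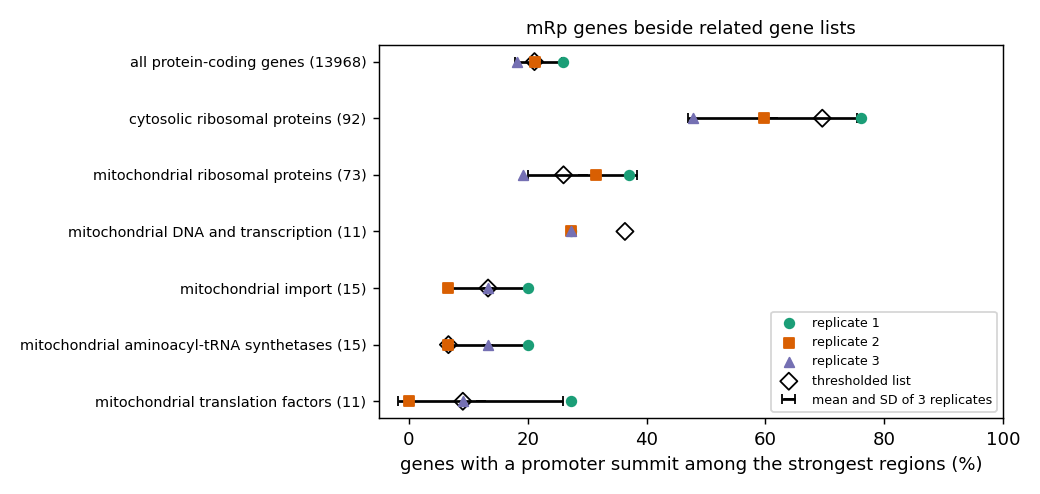
Share of genes with a promoter summit among the 6626 strongest regions (%) in each replicate, with the mean and SD of 3 replicates and the share in the thresholded list, for all protein-coding genes and 6 gene lists (numbers of genes in parentheses). Cytosolic ribosomal protein genes lie between 47.8% and 76.1%, mitochondrial ones between 19.2% and 37.0%.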

How the data were processed

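The 3 ChIP-seq libraries of eGFP-tagged Coop, 1 group, were analysed. Per the deposited notes, the authors made every replicate list on dm6 from its own alignment and a control alignment common to the 3. Signal is column 7, a score deposited by the authors whose scale differs between lists. Column 10 is the deposited summit offset. The name of the caller, its version and the IDR threshold are not given in the sources used here.

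A summit is column 2 plus column 10 plus 1. Genes and 19630 pairs of gene and TSS came from Ensembl release 115 (BDGP 6.54), and sequence came from the RefSeq release 6 genome, whose arms contain every interval of the 5 lists. Ranks are by signal within a list. A replicate was read at 6626 regions, as many as the thresholded list holds. The analysis used Python 3.11.15, pandas 2.3.3 and numpy 2.4.6, and the assignment of summits was checked on planted positions. The members, the lists and the words searched were chosen with earlier results of these data known, so no list was tested. Of 31 gene names given by hand, 7 did not match a symbol. Genes named are all bound members, their partners, members called in a replicate alone, members with a thresholded summit beyond 500 and within 1000 bp, and the bound genes of related lists with 6 or fewer, otherwise the 4 of highest signal. The 11 genes with no summit were named after their values were seen. Windows, list lengths, assignment rules and replicates were varied. Sequence from some chromosome arms is not shown.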

Additional observations from a re-analysis of the deposited data

How the results depend on the processing

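The count of 19 bound genes was 10 with the 3313 strongest thresholded peaks (all genes 11.9%, mRp genes 13.7%). It was 6 with the nearest TSS alone (8.22%, all genes 17.1%) and 10 when the peak interval had to cover the TSS. The share of all genes was not computed for the interval rule, so that drop cannot be read as particular to the mRp genes. With windows of 250 and 1000 bp the counts were 14 (19.2%, all genes 17.8%) and 21 (28.8%, all genes 24.9%), and with the gene's own 5′ end 19. The mean share in the replicates was 17.8% with 3313 regions per replicate, and 25.3% to 34.2% when 1 replicate was left out. The count found in all replicates was 11 to 15 when 1 replicate was left out, and 8 to 12 under the other settings. Within 50 bp of the summit the DRE, Motif 1 and GAGAG were at 0 summits (2.68%, 2.01% and 18.0% of all promoter summits) and the E-box at 1 (6.22%). Within 200 bp the DRE was at 3, Motif 1 at 4 and the E-box at 10 (8.13%, 6.78% and 25.4%). No paired analysis was possible because there is 1 group. Unknown depth limits any reading of a missing summit as absent binding.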

Other observations

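The bound genes were unevenly spread over the chromosome arms. On 3R, 1 of 21 mRp genes was bound (4.76%, beside 21.7% of all genes on that arm), and 9 of the 21 had a summit in the pooled relaxed list (42.9%, beside 40.9% of all genes on that arm). On 2L 5 of 12, on 2R 6 of 12, on 3L 3 of 17 and on X 4 of 11 were bound, beside 20.4% to 21.6% of the genes of these arms. In the strongest regions of replicates 1, 2 and 3, the 3R mRp genes numbered 6 (28.6%), 3 (14.3%) and 1 (4.76%), beside 26.3%, 22.2% and 18.4% of all 3R genes, so the share was low in replicates 2 and 3 and not in replicate 1.

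On 2R, 5 of the 6 bound genes, all but mRpL41, had a summit that was not found among the strongest regions of replicate 3. On the other arms replicate 3 found 12 of the 13. The 5 on 2R were weak, with signals from 204 to 281, and most of those on the other arms were stronger. The weaker summits of mRpL27 (269.5), mRpL14 (256) and mRpS30 (186) on other arms were found. Arm and signal are thus mixed. Over all 557 thresholded promoter summits on 2R replicate 3 found 67.3%, beside 71.2%, 70.9%, 75.3% and 77.2% on 3L, 3R, 2L and X. The arms were compared after their values were seen, and no test was made.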
